A study of Homo sapiens with 9 samples.

Results

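The genes described here are 10 Krüppel-like factors, namely KLF2, KLF4, KLF5, KLF6, KLF7, KLF9, KLF10, KLF11, KLF12 and KLF15. They were chosen by name, and each was read on the 1 probe set (the group of probes that reports a transcript) annotated with that symbol alone, out of 18417 genes measured in this way. Levels came from IMR90 ER:RAS cells, a line of human lung fibroblasts (spelled IRM90 in the labels) that carries a fusion of oncogenic RAS to an oestrogen receptor domain and is switched on by 4-hydroxytamoxifen (4OHT). All the cells carried the fusion, were grown for 7 days, and were labelled as day 6 of the 4OHT schedule. The vector-4OHT group held an empty vector and received no 4OHT, the vector+4OHT group held the same vector and received 100 nM 4OHT, and the shARID1B+4OHT group held a hairpin vector against ARID1B, the AT-rich interaction domain protein of SWI/SNF chromatin remodellers, and received the same 4OHT. There were 3 arrays in each of the 3 groups. No group received 4OHT without the fusion, a control hairpin, or the ARID1B hairpin without 4OHT, so that 4OHT and RAS, and the hairpin and the loss of ARID1B, cannot be told apart, and the labels did not say how many hairpins the third group pooled.

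Krüppel-like factors bind GC-rich and CACCC-type elements through zinc fingers at their C-terminal end, and the rest of the protein decides whether a member activates or represses. KLF2, KLF4, KLF5, KLF6 and KLF7 are best known as activators that recruit acetyltransferases. KLF9, KLF10 and KLF11 bind the corepressor SIN3A, KLF12 binds the corepressor CtBP, and KLF15 is known for its part in metabolism. In fibroblasts the family is linked to the control of the cell cycle, to the response to TGF-beta and to the expression of matrix and contractile genes.

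Most of the 10 genes differed between cells with and without 4OHT, and 4 differed again when the hairpin was present. With 4OHT, KLF4, KLF5, KLF6, KLF11, KLF12 and KLF15 were lower and KLF7, KLF9 and KLF10 were higher, which made 9 of 10 genes past an adjusted p of 0.05 (Benjamini-Hochberg over all 18417 genes), against 32.6% of all genes. The lower side held 6 members against 17.6% of all genes, and the higher side held 3 against 14.9%. Between shARID1B+4OHT and vector+4OHT arrays KLF4, KLF6, KLF9 and KLF11 were higher and none of the members was lower by the same test. Of all genes 15.7% were called in either direction, 9.63% higher and 6.09% lower. With dim genes (above the median of all values on fewer than 3 arrays) left out, 8 of 9 members and 5858 of 11945 genes were called with 4OHT. Between the groups with 4OHT these counts were 4 of 9 and 3196 of 11945. Set against vector-4OHT arrays, the shARID1B+4OHT arrays were higher for KLF7, KLF9 and KLF10 and lower for KLF2, KLF5 and KLF6, which made 6 of 10 against 31.5% of all genes, of which 15.6% were higher and 15.9% lower.

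The differences were moderate, and none of the 10 genes reached a 2-fold difference in any of the 3 comparisons. In absolute size they ran from 0.11 to 0.52 on the log2 scale between vector+4OHT and vector-4OHT arrays, from 0.067 to 0.66 between the groups with 4OHT, and from 0.13 to 0.90 between shARID1B+4OHT and vector-4OHT arrays. The median log2 difference of the members was -0.30, 0.14 and -0.17 in that order, and that of all genes was -0.01, -0.02 and -0.03. The 3 arrays of a group stood wholly apart from the 3 of the other group for 10, 6 and 9 members in that order, where 40.1%, 32.5% and 45.9% of all genes did so. Because the members were picked with earlier results of these arrays known, the counts describe these genes and are not a test of the family. For the members, calls that changed under an alternative are given by the alternative or by the range of adjusted p, and the methods' t-test is the plain test that the study used for its other assays, run here on the same values.

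**Figure D1:**
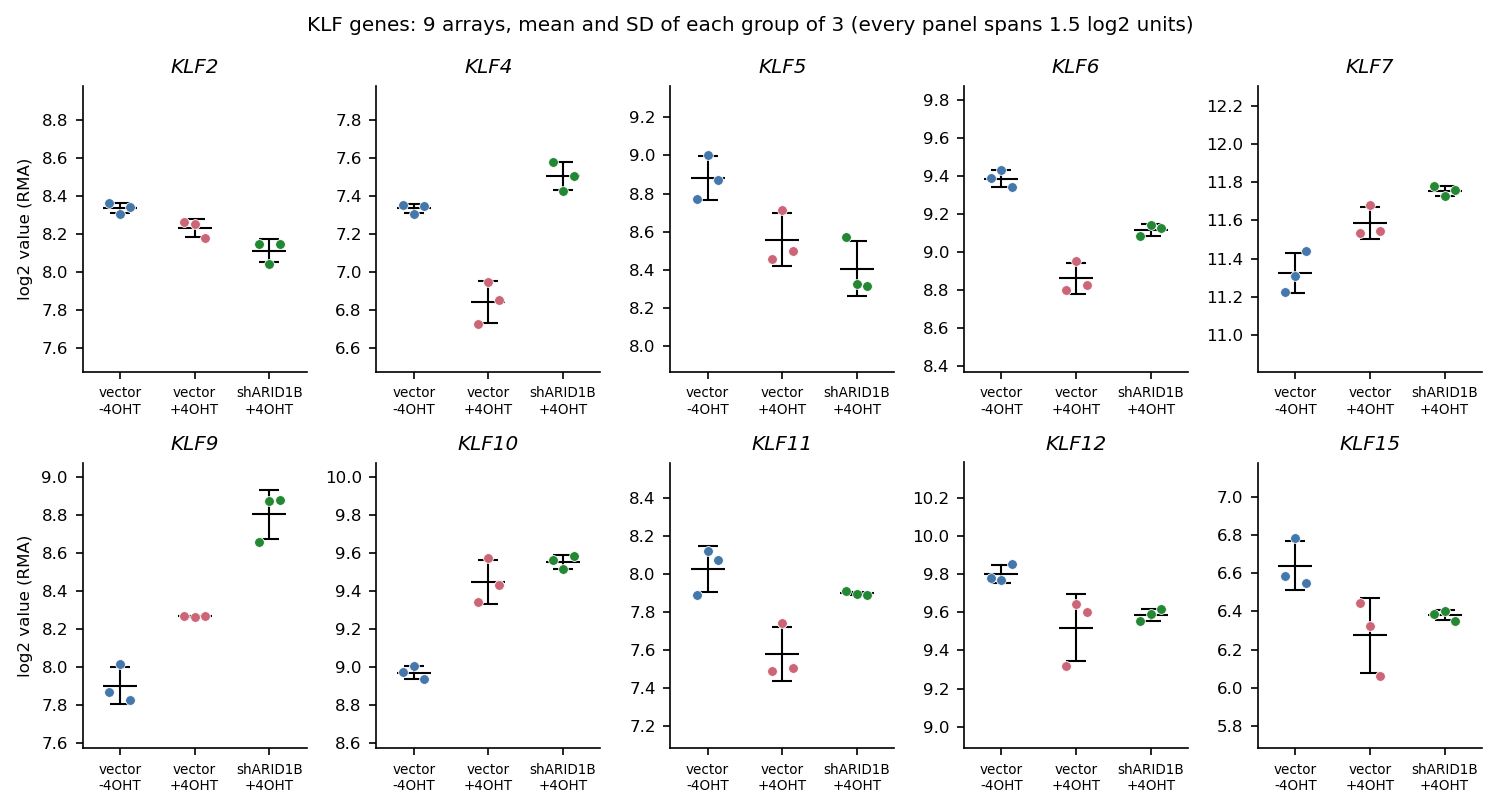
The log2 value of each KLF gene on each of the 9 arrays (points), with the mean (long bar) and SD (whiskers) of the 3 arrays of a group. The vertical axes start at different levels and all span 1.5 log2 units, and a reader should see KLF4, KLF6 and KLF11 dip in the vector+4OHT group while KLF9 steps up from group to group.

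For the arrays as a whole (all 33297 probe sets), values ran from 2.29 to 14.2 on the log2 scale with a median of 6.75. Correlations across these probe sets lay between 0.996 and 0.997 for arrays of a group, against 0.987 to 0.996 for arrays of different groups. The targeted gene, ARID1B, had means of 8.91 ± 0.052, 8.79 ± 0.16 and 8.05 ± 0.088 (SD, n = 3) in the vector-4OHT, vector+4OHT and shARID1B+4OHT groups, a log2 difference of -0.73 between the groups with 4OHT (adjusted p = 0.000179), which matched the labels. All 8 fibroblast markers (COL1A1, COL1A2, COL3A1, PDGFRB, DCN, LUM, THY1 and FBLN1) were above the median of all values in every group, while 0 of 4 leukocyte and 0 of 4 endothelial markers and 2 of 4 epithelial markers were. Of these 12 markers, PECAM1 (endothelial, under the median in every group) was 0.58 higher with 4OHT (adjusted p = 0.000254) and differed by -0.28 with the hairpin (adjusted p = 0.0468), and KRT8 (epithelial) differed by -0.25 with 4OHT (adjusted p = 0.048), with 10 of 16 and 12 of 17 alternatives losing the second and the third of these calls. On the vector-4OHT arrays the mean of the fibroblast markers lay at 11.4 to 11.6. It was 10.8 to 10.9 on the vector+4OHT arrays and 11.0 on the shARID1B+4OHT arrays. All 8 were called lower with 4OHT, against 17.6% of all genes, and 4 to 8 of them were over the alternative ways of processing. With the hairpin 2 of the 8 were higher and 1 was lower, against 9.63% and 6.09% of all genes. With 4OHT the members thus moved beside a lower level of the line's own marker genes, whose part in the results was not tested. In bulk RNA a gene carried by fewer cells and a gene with less RNA per cell cannot be told apart. Each group's 3 arrays limit the precision, and the study describes the replicates as biological without saying what was repeated.

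The RefSeq promoters of KLF4 and KLF6, which with KLF11 ran down and up again, and of the gene that rose in both steps (KLF9) show how unlike the DNA in front of these genes is. A promoter entry was found for 9 of the 10 members, with none for KLF10. Where RefSeq lists several starts (2 entries for KLF5 and KLF11, 4 for KLF7 and KLF12) the first entry was used, and the windows of the other starts were not counted. Each printed run is the 250 bases before the annotated start, 5′ to 3′ along the gene's own strand, in RefSeq's GRCh38.p14, and capitals mark each GC box (GGGCGG on either strand), the element that SP and KLF proteins bind.
KLF4, chr9:107489770-107490019, minus strand: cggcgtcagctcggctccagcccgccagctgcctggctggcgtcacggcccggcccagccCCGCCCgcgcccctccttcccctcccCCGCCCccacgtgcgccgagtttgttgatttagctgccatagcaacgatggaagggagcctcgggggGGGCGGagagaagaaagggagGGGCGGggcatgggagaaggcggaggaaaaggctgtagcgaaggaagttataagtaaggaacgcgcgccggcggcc
KLF6, chr10:3785210-3785459, minus strand: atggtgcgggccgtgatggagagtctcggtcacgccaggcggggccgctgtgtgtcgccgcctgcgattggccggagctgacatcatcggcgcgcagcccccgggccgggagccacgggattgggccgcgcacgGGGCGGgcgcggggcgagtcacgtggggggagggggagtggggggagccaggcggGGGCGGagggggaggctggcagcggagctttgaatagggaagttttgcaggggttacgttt
KLF9, chr9:70414658-70414907, minus strand: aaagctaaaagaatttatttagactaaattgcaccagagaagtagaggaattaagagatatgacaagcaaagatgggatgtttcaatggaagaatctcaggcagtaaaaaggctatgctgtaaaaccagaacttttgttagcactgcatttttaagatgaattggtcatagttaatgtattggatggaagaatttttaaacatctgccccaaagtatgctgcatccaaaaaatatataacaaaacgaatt
The window of KLF4 held 4 GC boxes and was 69.2% G and C, that of KLF6 held 2 and was 72.4% G and C, and that of KLF9 held 0 at 32.4%. Of the other members, KLF15 held 6 GC boxes, KLF2 held 4 and KLF11 held 2, while KLF5, KLF7 and KLF12 held 0, so 5 of 9 members had at least 1, where 42.6% of 35116 RefSeq promoter windows of the same length did. A CACCC box (CCACCC on either strand) was found in 1 of 9 members, KLF7, and in 31.3% of all windows, and the AP-1 site TGACTCA on either strand in 0 of 9 and in 4.2% of all windows. The median window was 58.0% G and C. These counts are of letters in a window and say nothing of the factors on it.

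KLF4, a regulator of epithelial differentiation and a reprogramming factor that can activate the cell cycle inhibitor CDKN1A, was lower with 4OHT and higher again with the hairpin. Its log2 values were 7.35, 7.30 and 7.35 on the vector-4OHT arrays, 6.73, 6.95 and 6.85 on the vector+4OHT arrays, and 7.58, 7.43 and 7.50 on the shARID1B+4OHT arrays. No array of a group overlapped with another group, and the vector+4OHT arrays lay lowest. Their mean of 6.84 was close to the median of all values, 6.75, and vector+4OHT replicate 1 lay under that median. The 4OHT difference was -0.49 (95% interval -0.63 to -0.35; adjusted p = 0.000135), or 28.8% lower, and the hairpin difference was 0.66 (0.52 to 0.80; adjusted p = 8.57e-05), or 1.58-fold higher. The shARID1B+4OHT mean also lay above the vector-4OHT mean, by 0.17 (0.03 to 0.31), which missed the threshold (adjusted p = 0.0711). That last call depended on the processing, since it passed under 4 of the 17 alternatives, namely the 6 arrays compared alone (adjusted p = 0.0365), dim genes left out (0.0468), array medians subtracted (0.0342) and vector+4OHT replicate 1 left out (0.0333), and ran up to an adjusted p of 0.212.

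KLF6, first described as a tumour suppressor and as an activator of TGF-beta receptor and endoglin genes, took the same course but did not return as far. It stood at 9.39, 9.43 and 9.34 without 4OHT, at 8.80, 8.95 and 8.83 with 4OHT, and at 9.08, 9.14 and 9.13 with 4OHT and the hairpin. The 3 groups did not overlap, and the hairpin arrays lay between the other groups. The 4OHT difference of -0.52 (-0.65 to -0.40; adjusted p = 2.55e-05), or 30.5% lower, held under all 17 alternatives. Between the groups with 4OHT the value was 0.26 higher (0.14 to 0.38; adjusted p = 0.00934), and a difference of -0.27 from vector-4OHT was left (-0.39 to -0.15; adjusted p = 0.00308). Of the alternatives only the methods' t-test lost the hairpin call, at an adjusted p of 0.0691.

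KLF7, a broadly expressed member known for its part in axon growth, rose with 4OHT. Values of 11.2, 11.3 and 11.4 on the vector-4OHT arrays compared with 11.5, 11.7 and 11.5 on the vector+4OHT arrays and 11.8, 11.7 and 11.8 on the shARID1B+4OHT arrays. The groups did not overlap, and they were in the same order as their listing here. The 4OHT difference was 0.26 (0.12 to 0.41; adjusted p = 0.00889; 0.103 under the methods' t-test), while that of the hairpin, 0.17 (0.03 to 0.31), did not pass (adjusted p = 0.114). Hairpin cells with 4OHT stood 0.43 above vector-4OHT cells (0.29 to 0.57; adjusted p = 0.000389), or 1.35-fold.

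KLF5, which drives proliferation in crypt epithelium and smooth muscle, was lower in both groups with 4OHT. It read 8.77, 9.003 and 8.87 without 4OHT, 8.46, 8.72 and 8.50 with 4OHT, and 8.57, 8.33 and 8.31 with the hairpin as well. Both groups with 4OHT lay below the vector-4OHT arrays, and they overlapped with each other. The 4OHT difference was -0.33 (-0.53 to -0.12; adjusted p = 0.0194), and that between hairpin and vector-4OHT arrays was -0.48 (-0.68 to -0.27; adjusted p = 0.00224). Between the groups with 4OHT the difference of -0.15 (-0.36 to 0.05) did not pass (adjusted p = 0.321), and it was -0.073 without vector+4OHT replicate 2 and -0.24 without shARID1B+4OHT replicate 1. The 4OHT call was lost without vector-4OHT replicate 2 or 3 or vector+4OHT replicate 1 or 3, at adjusted p of 0.0826, 0.0522, 0.0669 and 0.0649, and under the methods' t-test at 0.121.

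KLF2, an endothelial quiescence factor induced through ERK5 and MEF2, moved least from 4OHT. Its levels were 8.36, 8.31 and 8.34, then 8.26, 8.25 and 8.18, then 8.15, 8.04 and 8.14 in the vector-4OHT, vector+4OHT and shARID1B+4OHT groups. The groups stepped down without overlap, but neither step passed alone, at -0.11 (-0.22 to 0.007; adjusted p = 0.152) and -0.12 (-0.23 to -0.006; adjusted p = 0.158). The whole distance from vector-4OHT to shARID1B+4OHT arrays was -0.22 (-0.34 to -0.11; adjusted p = 0.00593), or 14.4% lower.

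**Figure D2:**
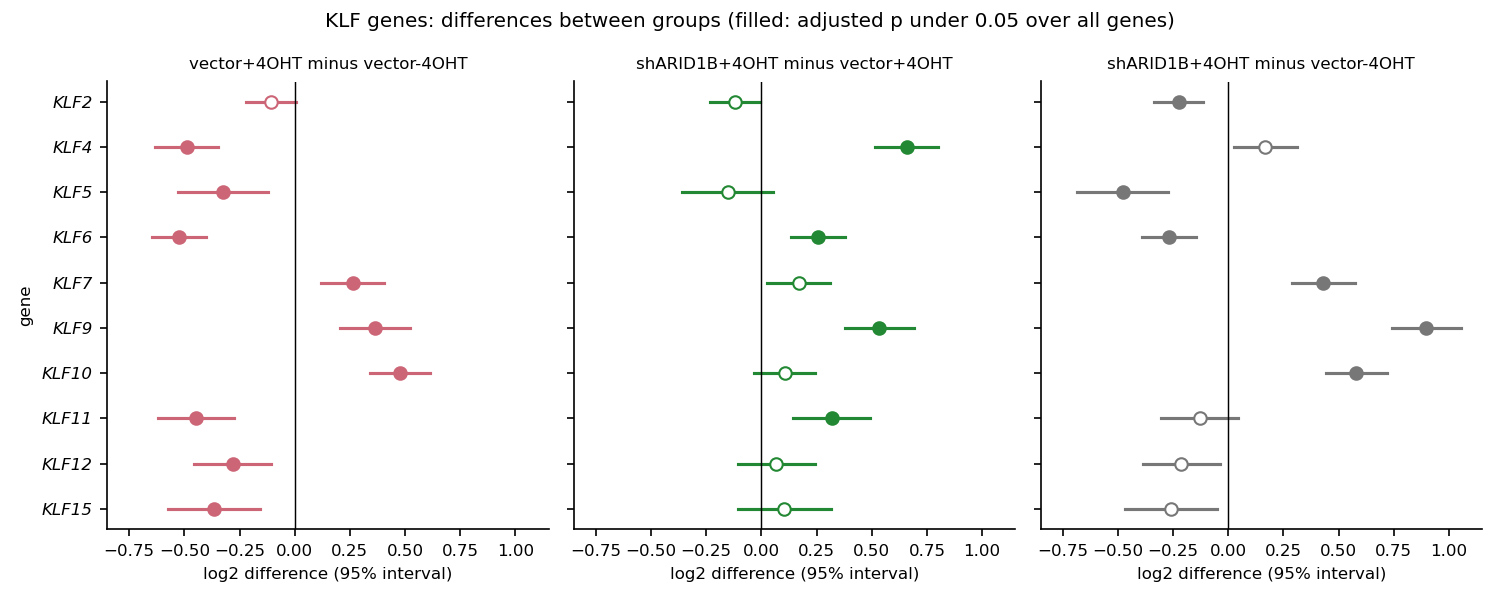
The log2 difference of each KLF gene (point) with its 95% interval (line) in the 3 comparisons named above the panels, where filled points passed an adjusted p of 0.05 over all 18417 genes and open points did not. Filled points lie on both sides of 0 with 4OHT (3 higher, 6 lower) and only to its right between the groups with 4OHT (4 higher, 0 lower).

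Among the SIN3A-binding members, KLF9, a repressor induced by glucocorticoids and thyroid hormone, rose in both steps. Its log2 values were 7.87, 8.01 and 7.83 on the vector-4OHT arrays, 8.27, 8.26 and 8.27 on the vector+4OHT arrays, and 8.65, 8.87 and 8.88 on the shARID1B+4OHT arrays. No array overlapped with another group. The 4OHT difference was 0.36 (0.21 to 0.52; adjusted p = 0.00219) or 1.29-fold, the hairpin difference 0.53 (0.38 to 0.69; adjusted p = 0.000618) or 1.45-fold, and the distance from vector-4OHT to shARID1B+4OHT arrays 0.90 (0.74 to 1.06; adjusted p = 3.17e-06) or 1.86-fold. That last difference was the largest of the 10 genes in any comparison. Vector+4OHT replicates 1 and 3 carried the same deposited value to the last digit, and the intervals given here rest on the spread within all 3 groups, not on the SD of 0.0039 in that one. Equal values were not particular to KLF9, since 8354 of the 18417 genes (45.4%) had at least 2 arrays with exactly the same value.

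KLF10 and KLF11, both first described as early genes of the TGF-beta response, moved in opposite directions with 4OHT. KLF10 stood at 8.97, 9.004 and 8.94 on the vector-4OHT arrays, at 9.34, 9.57 and 9.43 on the vector+4OHT arrays, and at 9.56, 9.51 and 9.58 on the shARID1B+4OHT arrays. Both groups with 4OHT lay above the vector-4OHT arrays and overlapped with each other. Its 4OHT difference was 0.48 (0.34 to 0.61; adjusted p = 0.000125), or 1.39-fold, and that from vector-4OHT to shARID1B+4OHT arrays 0.58 (0.44 to 0.72; adjusted p = 2.96e-05), whereas the groups with 4OHT differed by 0.10 (-0.03 to 0.24; adjusted p = 0.303). Without vector+4OHT replicate 1 that value was 0.051, and without replicate 2 it was 0.17.

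KLF11 read 7.89, 8.12 and 8.07 without 4OHT, 7.49, 7.74 and 7.51 with 4OHT, and 7.91, 7.90 and 7.89 with 4OHT and the hairpin. The vector+4OHT arrays lay below both other groups, which overlapped. It was 26.6% lower with 4OHT, a difference of -0.45 (-0.62 to -0.27; adjusted p = 0.00108; 0.0624 under the methods' t-test). With the hairpin it was 0.32 higher (0.14 to 0.49; adjusted p = 0.0196), and the remaining difference from vector-4OHT was -0.13 (-0.30 to 0.04; adjusted p = 0.253), with values of -0.069 after array medians were subtracted, -0.20 without vector-4OHT replicate 1 and -0.083 without vector-4OHT replicate 2. The hairpin call was the least secure of the 4: it was lost over all probe sets (adjusted p = 0.0518), without vector+4OHT replicate 1 or 3 (0.0656 and 0.061), without any one of the shARID1B+4OHT replicates (0.0595 to 0.0654) and under the methods' t-test (0.113).

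KLF12, a CtBP-dependent repressor, fell with 4OHT. Its values were 9.78, 9.77 and 9.85 on the vector-4OHT arrays, 9.32, 9.64 and 9.60 on the vector+4OHT arrays, and 9.55, 9.59 and 9.62 on the shARID1B+4OHT arrays. The vector-4OHT arrays lay above all the others, and vector+4OHT replicate 1 lay below the rest. The 4OHT difference of -0.28 (-0.46 to -0.11; adjusted p = 0.0179) was lost with only the 6 arrays compared (adjusted p = 0.0506), with array medians subtracted (0.0648), without vector-4OHT replicate 3 (0.0671) and under the methods' t-test (0.169), and without vector+4OHT replicate 1 it was -0.18 (adjusted p = 0.0226). A hairpin difference of 0.067 (-0.11 to 0.24; adjusted p = 0.622) became -0.035 without vector+4OHT replicate 1. From vector-4OHT to shARID1B+4OHT arrays the value was -0.21 (-0.39 to -0.04; adjusted p = 0.0635), and it passed with the 6 arrays compared alone (0.00793), dim genes left out (0.0412), an intensity trend (0.0455), the methods' t-test (0.0179) and vector+4OHT replicate 1 left out (0.0049), in a range up to 0.259.

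KLF15, a glucocorticoid-induced regulator of amino acid and glucose metabolism, was lower with 4OHT at a level under the median of the arrays. It read 6.58, 6.79 and 6.55 without 4OHT, 6.44, 6.32 and 6.06 with 4OHT, and 6.39, 6.40 and 6.35 with the hairpin as well. All 3 group means lay under the median of all values, 6.75, so the gene was not shown to be above background, and the vector-4OHT arrays lay above the rest. The 4OHT difference was -0.36 (-0.57 to -0.16; adjusted p = 0.0116), lost without vector-4OHT replicate 2 (adjusted p = 0.0521) and under the methods' t-test (0.164). Between the groups with 4OHT the difference was 0.10 (-0.10 to 0.31; adjusted p = 0.512), and without vector+4OHT replicate 3 it was -0.0039. The shARID1B+4OHT mean was 0.26 under that of vector-4OHT (-0.26; -0.47 to -0.05; adjusted p = 0.0589), and that difference passed without vector+4OHT replicate 1 or 3 (0.0337 and 0.0171), with the 6 arrays compared alone (0.0209) and with the replicate number as a block (0.0366), in a range up to 0.213.

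The members therefore fell into 5 patterns: 3 lower with 4OHT and higher with the hairpin (KLF4, KLF6, KLF11), 1 higher in both steps (KLF9), 3 lower with 4OHT and not called with the hairpin (KLF5, KLF12, KLF15), 2 higher with 4OHT and not called with the hairpin (KLF7, KLF10), and 1 called in neither step (KLF2). The same vector+4OHT arrays stand in both steps with opposite signs, so a return of a gene was read from the third comparison, in which KLF4 and KLF11 did not differ from vector-4OHT by the test and KLF6 remained lower. A p that misses the threshold does not show that levels were equal, and the intervals above give the sizes that stay possible.

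**Figure D3:**
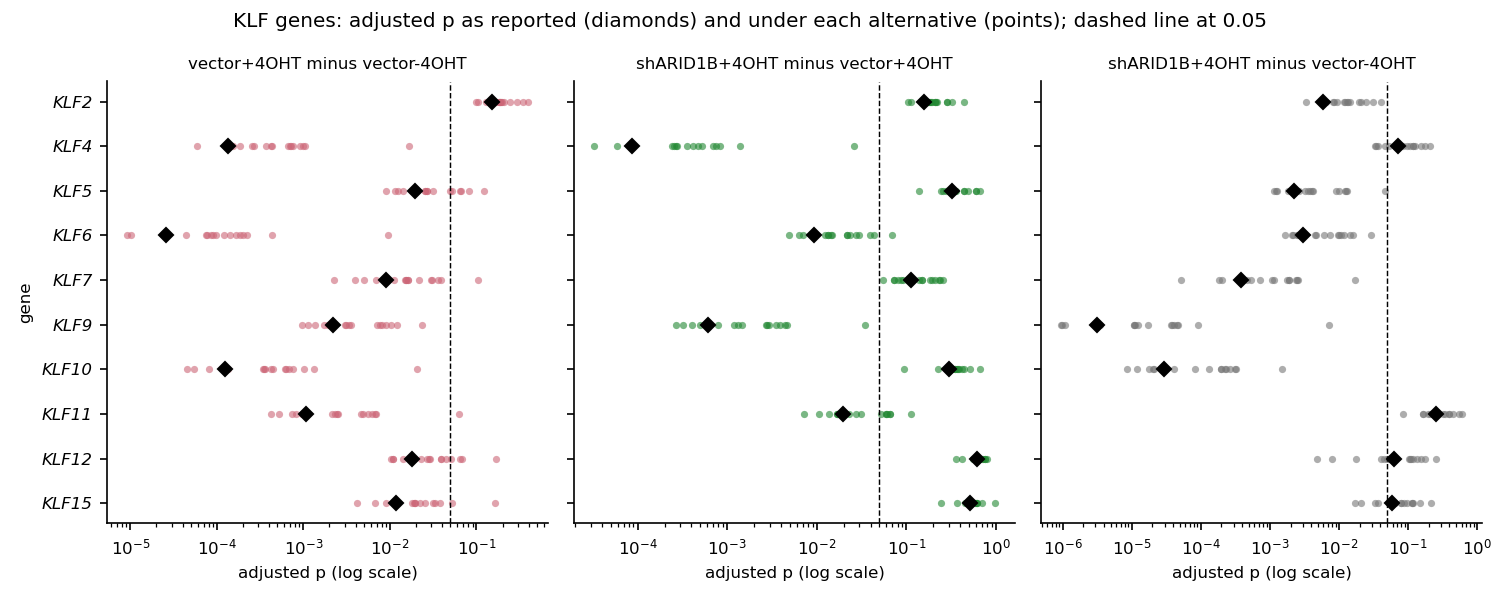
The adjusted p of each KLF gene (log axis) in the 3 comparisons, as reported (diamond) and under each alternative way of processing the same arrays (points), with a dashed line at 0.05. With 4OHT the points of KLF4, KLF6, KLF9 and KLF10 all stay left of the line, and between the groups with 4OHT those of KLF4 and KLF9 do, while points of KLF11 lie on both sides.

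Few of the other genes of the same zinc finger family passed the test. Of 15 further KLF and SP genes (SP9 was not analysed here), 0 passed in limma's test of 4OHT, against 32.6% of all genes. An unadjusted p under 0.05 was found for 2 of them (SP1 and KLF3). Their median difference was 0.003, and their median size was 0.056 against 0.36 for the 10 members and 0.11 for all genes. The members were picked with earlier results of these arrays known, so that gap describes these genes and is not a test of a split within the family. Of the 15 genes, 11 had a group mean above the median of all values. KLF3, a CtBP-binding repressor, was 0.40 higher with the hairpin (adjusted p = 0.0236) after a 4OHT difference of -0.23 (adjusted p = 0.115). It was the only gene of the 15 called between the groups with 4OHT, against 15.7% of all genes. That call was lost under 6 of the 17 alternatives. Over those alternatives 0 to 1 of the 15 were higher and 0 to 2 lower with 4OHT. SP1, the ubiquitous activator of GC-box promoters, had a 4OHT difference of -0.15 (adjusted p = 0.101) and a hairpin difference of 0.20 (adjusted p = 0.0689). From vector-4OHT to shARID1B+4OHT arrays 0 of the 15 passed, against 31.5% of all genes, with 3 at an unadjusted p under 0.05.

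**Figure D4:**
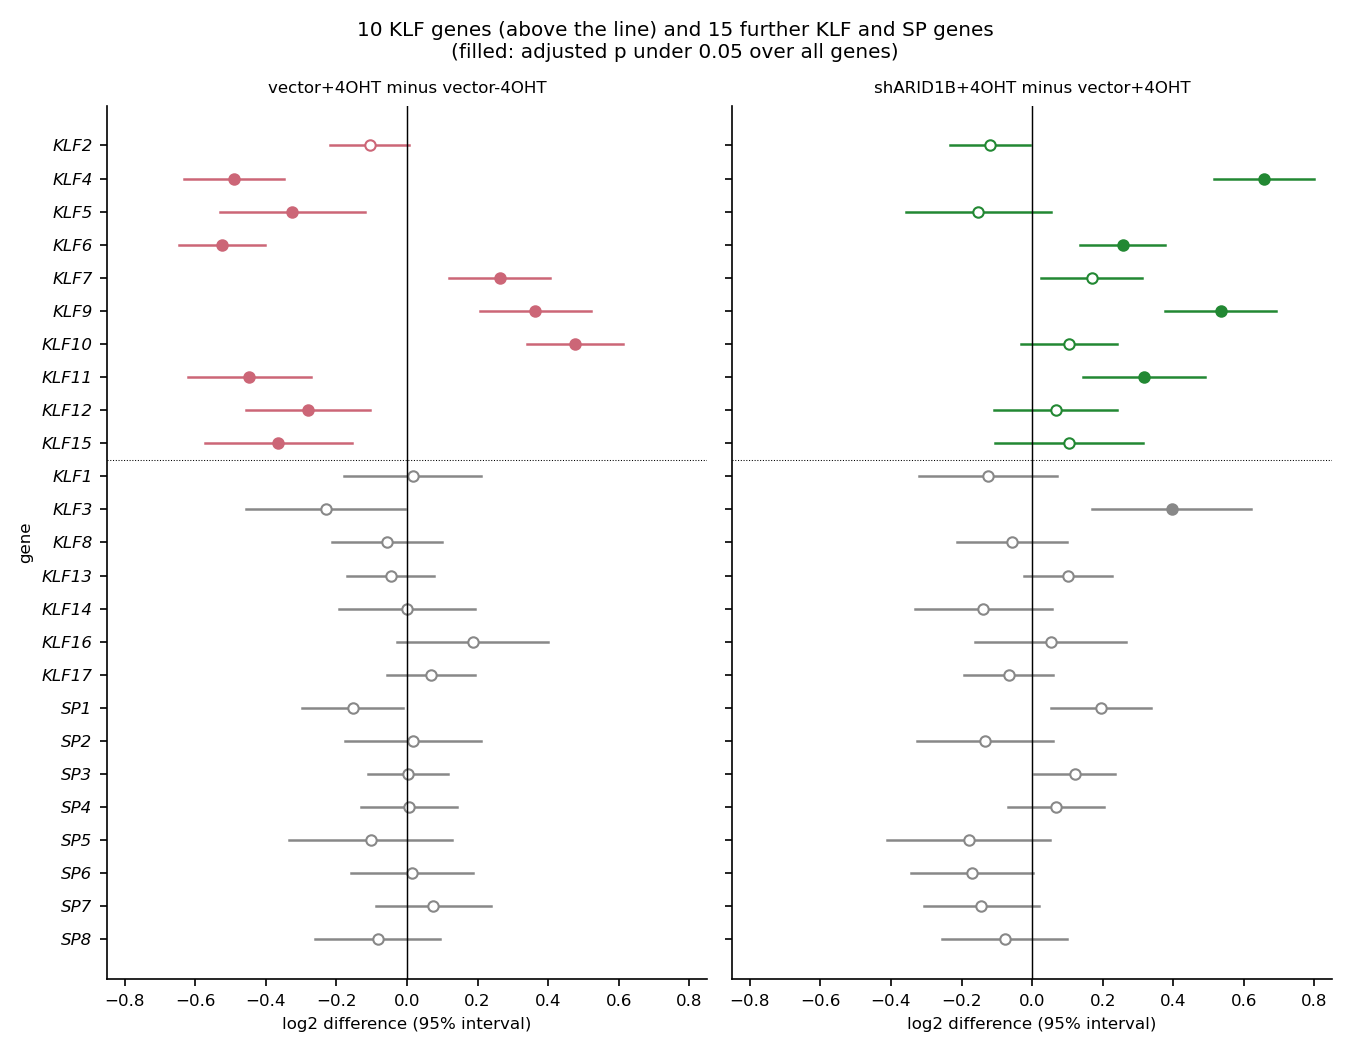
The log2 difference (point) and 95% interval (line) of the 10 KLF genes, above the dotted line, and of 15 further KLF and SP genes, below it, for 4OHT (left) and for the hairpin in the presence of 4OHT (right). Filled points passed an adjusted p of 0.05 over all genes: 9 of 10 above the line and 0 of 15 below it on the left, 4 of 10 and 1 of 15 (KLF3) on the right. The 10 genes above the line were picked with earlier results of these arrays known, so the contrast across it is not a test of the family.

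Of 9 genes for cofactors through which these proteins act, 0 rose and 3 fell with 4OHT, with a median difference of -0.02. Of all genes 14.9% rose and 17.6% fell, or 32.6% in either direction. KAT2B, an acetyltransferase, fell by 0.93 (adjusted p = 2.26e-05), and CTBP2, the corepressor of KLF3 and KLF12, fell by 0.41 (adjusted p = 0.000146). CREBBP, an acetyltransferase, fell by 0.34 (adjusted p = 0.00363; 0.0799 under the methods' t-test). With the hairpin 3 rose and 0 fell, where 9.63% of all genes rose, with a median of -0.01. These were KAT2B at 0.46 (adjusted p = 0.00838), CTBP2 at 0.26 (adjusted p = 0.00831) and SIN3A, the corepressor of KLF9, KLF10 and KLF11, at 0.21 (adjusted p = 0.0486), calls that were lost under 1, 2 and 13 of the 17 alternatives in that order. Relative to vector-4OHT, 1 of the 9 was higher and 3 were lower in the shARID1B+4OHT arrays, against 15.6% and 15.9% of all genes.

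Of 4 ubiquitin ligases known to act on KLF proteins, SMURF1, a ligase for KLF2, rose by 0.51 with 4OHT (adjusted p = 6.82e-05) and the other 3 did not pass, against 32.6% of all genes called. Between the groups with 4OHT 0 of the 4 passed in limma's test, against 15.7% of all genes. SMURF1 alone had an unadjusted p under 0.05 there (a difference of -0.18, adjusted p = 0.0769). Of 5 genes of the ERK5 and MEF2 pathway upstream of KLF2 and KLF4, 2 passed with 4OHT, against the same 32.6%. MEF2C rose by 0.67 (adjusted p = 1.95e-05) and MEF2D by 0.25 (adjusted p = 0.012; 0.118 under the methods' t-test). MAPK7, which encodes ERK5, differed by -0.22 with 4OHT (adjusted p = 0.097). Its 3 vector+4OHT arrays, vector-4OHT replicate 1 and shARID1B+4OHT replicate 1 carried the same value. MEF2C was the only one of the 5 called with the hairpin, at -0.28 (adjusted p = 0.0187), against 15.7% of all genes, and that call was lost under 6 of the 17 alternatives.

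KLF9 and KLF15 are glucocorticoid-induced, and of 6 further genes of that response (FKBP5 was not analysed here) 4 rose and 1 fell with 4OHT, against 14.9% and 17.6% of all genes. NR3C1, the glucocorticoid receptor, rose by 0.29 (adjusted p = 0.0013), PER1 by 0.20 (adjusted p = 0.0211), DUSP1, a MAP kinase phosphatase, by 0.19 (adjusted p = 0.00707) and SGK1 by 0.16 (adjusted p = 0.0455), while TSC22D3 differed by -0.30 (adjusted p = 0.00536). With the hairpin SGK1 rose by 0.37 (adjusted p = 0.00122) and DUSP1 by 0.19 (adjusted p = 0.0165), and none of the 6 fell, against 9.63% and 6.09% of all genes. DUSP1 and SGK1 were thus called higher in both steps, as KLF9 was. They stood 0.39 and 0.54 above vector-4OHT in the shARID1B+4OHT arrays (adjusted p = 7.17e-05 and 2.51e-05). KLF15 was instead lower with 4OHT (-0.36, adjusted p = 0.0116), as TSC22D3 was, and neither was called with the hairpin. The 4OHT call of SGK1 was lost under 11 of the 17 alternatives and that of PER1 under 4. That of TSC22D3 was lost under the methods' t-test alone (adjusted p = 0.0923), and the hairpin call of DUSP1 was lost under 2. The median of the 6 was 0.18 with 4OHT and 0.10 with the hairpin.

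Around the TGF-beta early genes KLF10 and KLF11, 4 of 5 genes of that response rose with 4OHT and 0 fell, against 14.9% and 17.6% of all genes, with a median of 0.88. SKIL, a SMAD corepressor, rose by 1.56 (adjusted p = 6.58e-08), PMEPA1 by 0.95 (adjusted p = 2.23e-07), SMAD7, an inhibitor of the receptor that KLF10 and KLF11 are known to repress, by 0.88 (adjusted p = 0.000105) and TGIF1 by 0.57 (adjusted p = 1.32e-05). KLF10 lay on the side of these genes with 4OHT, and KLF11 on the other. With the hairpin 0 rose and 2 fell, against 9.63% and 6.09% of all genes, PMEPA1 at -0.19 (adjusted p = 0.0356) and CCN2, a matricellular growth factor, at -0.19 (adjusted p = 0.0156), with a median of -0.19. The call of PMEPA1 was lost under 9 and that of CCN2 under 3 of the 17 alternatives, while the 4OHT calls held under all of them.

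Of 15 textbook targets of KLF proteins, 4 rose and 6 fell with 4OHT, against 14.9% and 17.6% of all genes, with a median of -0.05. PLAU, which encodes urokinase, rose by 1.13 (adjusted p = 1.42e-07), THBD, the thrombin receptor thrombomodulin, by 1.08 (adjusted p = 2e-06) and CDKN1A by 0.69 (adjusted p = 3.99e-06). ENG, the TGF-beta coreceptor endoglin, rose by 0.33 (adjusted p = 0.00337; 0.0726 under the methods' t-test). TAGLN, a smooth muscle actin-binding protein, differed by -0.80 (adjusted p = 2.7e-06). With the hairpin 1 rose and 5 fell, against 9.63% and 6.09% of all genes, with a median of -0.09. THBD, a target of KLF2 and KLF4, rose by a further 0.76 (adjusted p = 0.000139), and its 3 vector+4OHT arrays carried the same value, a tie within a group that 721 genes showed. CDKN1A differed by -0.48 (adjusted p = 0.000279), ENG by -0.30 (adjusted p = 0.0153) and TAGLN by -0.53 (adjusted p = 0.000271), and the other members of the 5, named after their values were seen, were COL1A1 and ACTA2. The hairpin calls of COL1A1, ACTA2 and ENG were lost under 11, 12 and 4 of the 17 alternatives, which left 2 to 5 genes lower.

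The genes whose course over the 9 arrays lay closest to a member were taken for the 3 members with the widest spread of group means, as the root-mean-square log2 difference after each gene's own mean was removed, so that likeness is a description over 9 arrays of one fit. For KLF9 they were TFB1M at 0.066, FMOD at 0.070 and ZNF217 at 0.080, among 3157 candidate genes with a spread of means of at least 0.5 times that of KLF9. For KLF4 they were HAUS2 at 0.072, HTATIP2 at 0.074 and SAMD5 at 0.076, among 4752 candidates. For KLF10 they were PCGF3 at 0.045, CNIH2 at 0.048 and TMEM164 at 0.052, among 5597 candidates.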

How the data were processed

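RNA of 9 samples, labelled by vector, 4OHT and replicate number, was hybridised to Affymetrix whole-transcript gene arrays. The deposited table held log2 values which, per the submitters' processing notes, the authors made with RMA (background correction, quantile normalization and probe summary across arrays) and oligo; versions, probe annotation and any filter were not given in the sources used here. The extraction text in the labels names a sequencing kit, whereas the labelling text and the values are those of an array. No counts or depth exist for arrays. RMA equalises the distributions of probe intensities before they are summarised, so a shift shared by most genes may have been removed. The deposited values were not fully equal in distribution, and the medians of the 9 arrays ran from 6.70 to 6.79.

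Of 33297 probe sets, 19460 had exactly 1 gene symbol in the platform annotation, 1754 had several and 12083 had none; 19429 of the symbols matched RefSeq. For the 769 genes with several probe sets the one with the highest mean was kept, which left 18417 genes, unfiltered and on the deposited scale. Group means were compared with limma 3.58.1 in R 4.3.3 (lmFit, eBayes, group as the only term, all 9 arrays, 2-sided, Benjamini-Hochberg over all genes, threshold 0.05); on simulated data with known changes the code was checked first. Promoters came from RefSeq tables for GRCh38.p14. Figures were drawn with matplotlib.

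The members, the gene lists and the tests were chosen with earlier results of these data known. By rule the text names all 10 members, ARID1B, and of each list at most 4 genes with the smallest p for 4OHT and 4 for the hairpin; the 8 fibroblast markers are also listed, and COL1A1 and ACTA2 among the targets were added after their values were seen. Results were recomputed with a block for replicate number, with the 6 arrays compared alone, without dim genes, over all probe sets, with probe sets of a gene averaged, with array medians subtracted, with an intensity trend, with the methods' 2-sided Student test as used for other assays, and with each array left out in turn.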

Additional observations from a re-analysis of the deposited data

How the results depend on the processing

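Over these alternatives the 4OHT calls of KLF4, KLF6, KLF9 and KLF10 and the hairpin calls of KLF4 and KLF9 held, as did all 6 calls between shARID1B+4OHT and vector-4OHT arrays. The methods' t-test called 4 members (KLF4, KLF6, KLF9 and KLF10) with 4OHT (9 by limma) and 2 (KLF4 and KLF9) with the hairpin (4 by limma), and over all genes 3738 (5996 by limma) and 1446 (2895 by limma). Leaving out 1 array, the genes called with the hairpin numbered 1801 (without shARID1B+4OHT replicate 2) to 2817, the hairpin difference of KLF12 ran from -0.035 to 0.13 and that of KLF15 from -0.0039 to 0.19, and the cause was not tested. Subtracting array medians changed the genes higher and lower with 4OHT from 2747 and 3249 to 3026 and 2658, with the hairpin from 1773 and 1122 to 1799 and 760, and between shARID1B+4OHT and vector-4OHT arrays from 2867 and 2933 to 3452 and 2087. KLF15 was left out with the dim genes. Same-numbered arrays deviated with correlations of -0.26 to 0.32, so the numbers were not taken to pair arrays; with the replicate number as a block 9, 4 and 7 members were called, the added one being KLF15 between shARID1B+4OHT and vector-4OHT arrays (adjusted p = 0.0366). The number of arrays, 3 a group, limits the precision, and the intervals show by how much. The same alternatives were applied to the other gene lists after their values had been seen.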
